A study of Homo sapiens with 17 samples.

Results

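The RUNX family genes RUNX1, RUNX2, RUNX3 and CBFB were mapped in peak lists made by CUT&RUN in Nthy-ORI cells, a human line derived from normal thyroid epithelium and immortalised in culture. CUT&RUN uses an antibody-directed nuclease to release the DNA around a bound protein. The antibodies were to thyroid hormone receptor beta (TRβ), to BRG1 (the motor subunit shared by the chromatin remodelers BAF and PBAF), to ARID1A (a BAF subunit) and to PBRM1 (a PBAF subunit). For each antibody there was 1 list for cells treated with 10 nM T3 (triiodothyronine, the active thyroid hormone) and 1 list for cells given vehicle (NaOH). All cells, vehicle cells included, had first been kept without hormone in medium with charcoal-stripped serum. The sample labels give 6 hours of exposure, while the protocol text shared by all samples also names a longer one. A region was taken as a member if it overlapped the RefSeq span of 1 of the 4 genes extended by 25 kb on each side. This gave 207 of the 266843 regions in the 8 lists on the main chromosomes (hg38).

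RUNX proteins bind DNA through the Runt domain at sites close to TGTGGT. CBFβ, the product of CBFB, does not read the DNA sequence itself but strengthens the binding of whichever RUNX protein it joins. RUNX1 is best known from blood cell formation, RUNX2 from bone formation and RUNX3 from T cells, neurons and epithelia, and each RUNX gene is transcribed from a distal and a proximal promoter. RUNX2 is also expressed in thyroid tumours, and TRβ has been reported to lower its expression in thyroid cancer cells. The peak lists hold no expression values, so whether the 4 genes were expressed, or changed with T3, was not measured here.

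The promoters are shown first because the lists treated them differently: the proximal promoters of RUNX1 and RUNX2 each overlapped regions of 6 of the 8 lists, the distal promoter of RUNX3 overlapped 5, and the distal promoter of RUNX2 overlapped 0. Of all promoters, 15.1% overlapped regions of at least 6 lists, 27.9% of at least 5, and 45.6% of 0. Each sequence runs 5′ to 3′ on the gene's strand, from 250 bases before to 50 after the annotated start, from RefSeq GRCh38.p14. Capitals mark AGGTCA, a half-site bound by TRβ and other nuclear receptors, and TGTGGT, the core RUNX site. Motifs were searched on both strands, so TGTGGT on the opposite strand reads ACCACA, and none of the matches overlapped another.
RUNX1 proximal promoter, chr21:34888650-34888949, minus strand: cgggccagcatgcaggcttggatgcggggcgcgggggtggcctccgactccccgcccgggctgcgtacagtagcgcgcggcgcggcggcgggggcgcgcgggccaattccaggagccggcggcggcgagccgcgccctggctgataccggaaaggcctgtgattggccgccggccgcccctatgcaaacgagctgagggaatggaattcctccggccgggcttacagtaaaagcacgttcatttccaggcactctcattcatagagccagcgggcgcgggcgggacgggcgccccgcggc
RUNX2 proximal promoter, chr6:45422025-45422324, plus strand: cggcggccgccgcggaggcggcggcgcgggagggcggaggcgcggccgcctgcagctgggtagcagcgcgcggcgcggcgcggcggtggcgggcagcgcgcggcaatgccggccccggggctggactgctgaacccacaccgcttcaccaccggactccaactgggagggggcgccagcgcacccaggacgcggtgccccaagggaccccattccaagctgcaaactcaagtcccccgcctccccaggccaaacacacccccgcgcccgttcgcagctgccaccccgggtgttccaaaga
RUNX2 distal promoter, chr6:45328080-45328379, plus strand: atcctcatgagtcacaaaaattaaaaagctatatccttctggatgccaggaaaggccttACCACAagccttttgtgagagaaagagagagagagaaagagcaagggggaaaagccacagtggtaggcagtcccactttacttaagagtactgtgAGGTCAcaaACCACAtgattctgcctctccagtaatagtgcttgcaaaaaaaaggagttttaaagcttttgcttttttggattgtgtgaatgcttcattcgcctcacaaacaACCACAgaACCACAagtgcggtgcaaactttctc
RUNX3 distal promoter, chr1:24964961-24965260, minus strand: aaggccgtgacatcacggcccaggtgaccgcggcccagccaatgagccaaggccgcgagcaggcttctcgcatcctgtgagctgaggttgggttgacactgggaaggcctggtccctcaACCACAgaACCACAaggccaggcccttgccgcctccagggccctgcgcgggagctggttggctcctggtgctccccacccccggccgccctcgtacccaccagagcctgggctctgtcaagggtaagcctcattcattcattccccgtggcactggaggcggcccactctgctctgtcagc

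The RUNX2 distal promoter held 1 AGGTCA and 4 TGTGGT matches, and the RUNX3 distal promoter held 2 TGTGGT matches. The RUNX1 and RUNX2 proximal promoters held neither motif. Of all 35116 promoters in the same table, 13.8% held AGGTCA, 13.1% held TGTGGT, and 0.0199% held the direct repeat of AGGTCA with 4 bases between its copies, which was in none of the RUNX promoters. The distal promoters of RUNX2 and RUNX3 share the 18-base run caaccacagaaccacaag, which carries a pair of the TGTGGT matches in each. The proximal promoters of RUNX1 and RUNX2 share the 16-base run agcgcgcggcgcggcg. GC content was 72% in the RUNX1 proximal and 76% in the RUNX2 proximal promoter, 66.3% in the RUNX3 distal promoter and 42.7% in the RUNX2 distal promoter, against a median of 58.7% over all promoters. A motif match is a description of the letters and not a measured site. The table held 5 promoters of 3 of the 4 genes. The RUNX3 proximal promoter, not printed, held neither motif, and CBFB was not in the table.

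Across the series, the T3 and vehicle lists held 7208 and 1412 regions for TRβ, 55938 and 64299 for BRG1, 41710 and 49021 for ARID1A, and 38140 and 9115 for PBRM1. Each list holds peaks found in both libraries of its group, so there is 1 list a group, no replicate check of a difference between lists, and no test was made. Nothing in the labels says that the libraries came from separate cultures. The signal value of a region is the authors' own and is the sum of its values in the 2 libraries, which are given in brackets below. It was used to rank regions within a list only, as the percentage of the list at or below it, called its percentile here. Values of T3 and vehicle lists are printed side by side below, but a difference between them is not a measured change. Spearman's correlation between the 2 libraries over the regions of a list was -0.03 for TRβ with T3 and 0.97 for TRβ with vehicle. With T3 and with vehicle, it was 0.26 and 0.90 for PBRM1, 0.47 and 0.48 for BRG1, and 0.21 and 0.16 for ARID1A. A region absent from a list did not pass in both libraries, which does not show that the protein was absent there. The BRG1 T3 list held regions near 5 of 5 epithelial, 6 of 7 thyroid, 3 of 3 mesenchymal and 2 of 3 haematopoietic marker genes, against 79.8% of all protein-coding genes, so these counts do not check the cell label. At NKX2-1, a defining thyroid factor, 7 of the 8 lists held 0 regions and ARID1A with vehicle held 1. The other thyroid markers all had BRG1 regions with T3, and PAX8, also a thyroid factor, had regions of all 8 lists.

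**Figure D1:**
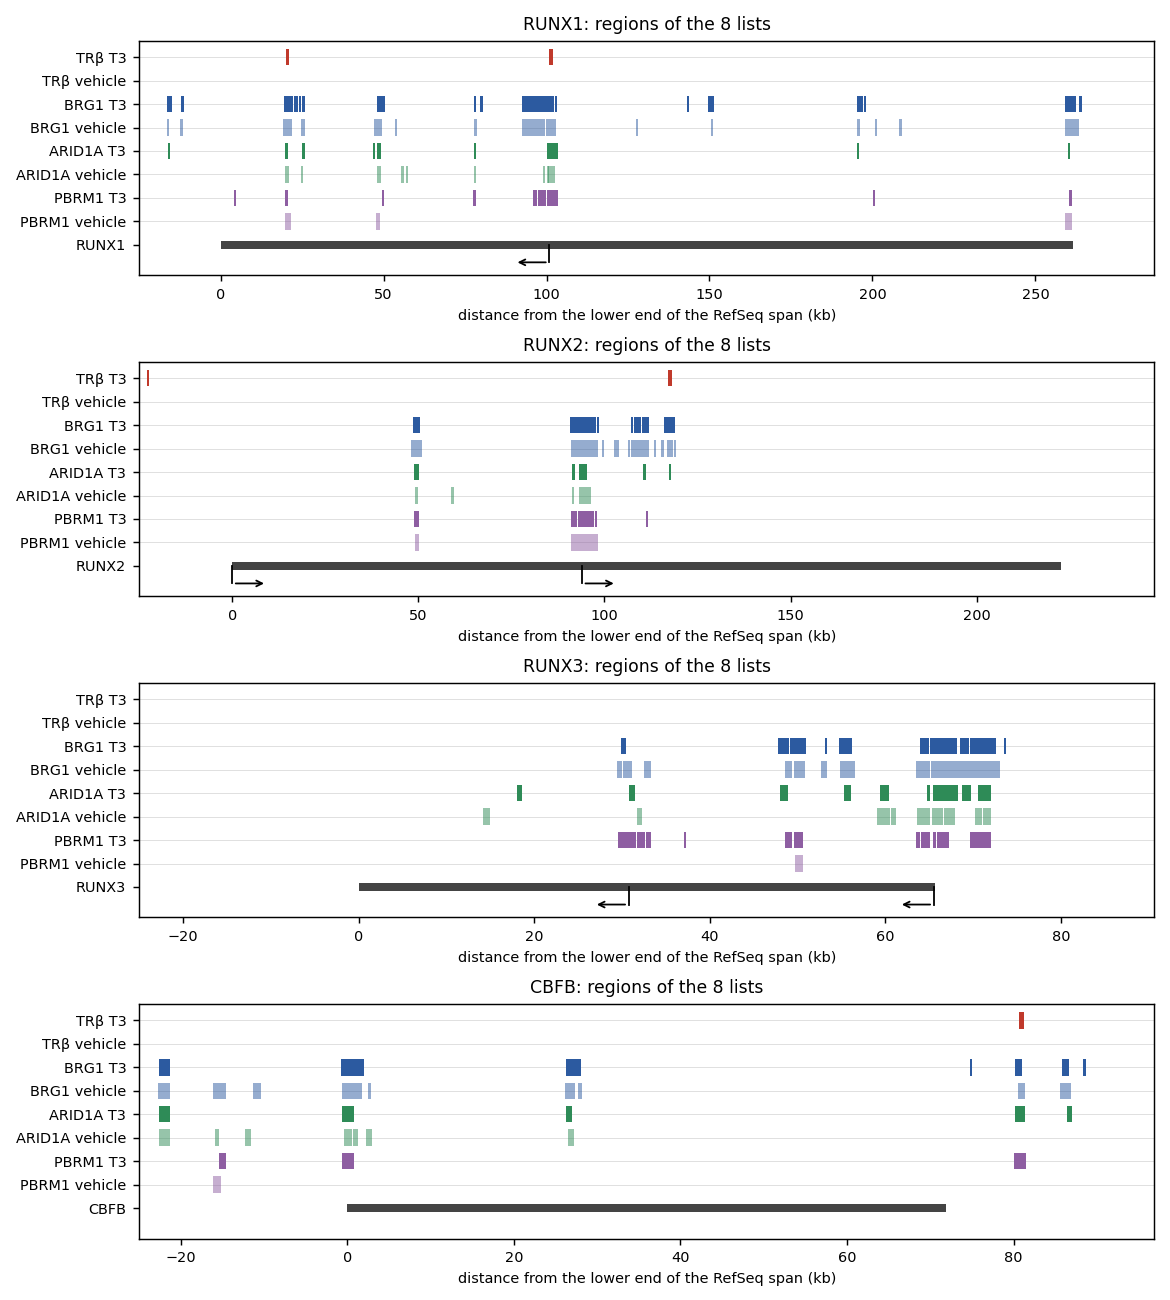
Regions of the 8 lists along the RUNX1, RUNX2, RUNX3 and CBFB windows. The x axis gives distance in kb from the lower end of the RefSeq span (grey bar), each row is 1 list with T3 above vehicle, and arrows mark annotated start sites. TRβ regions are seen in the T3 rows of RUNX1 (2), RUNX2 (2) and CBFB (1), and the TRβ vehicle rows are empty.

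TRβ was listed near RUNX1, RUNX2 and CBFB with T3 and near none of the 4 genes with vehicle. The T3 list held 2 regions in the RUNX1 window, 2 in the RUNX2 window, 1 in the CBFB window and 0 in the RUNX3 window, and the vehicle list held 0 in each. With T3, 39.3% of the windows of 20037 protein-coding genes held a TRβ region, and with vehicle 11.1% did. Among genes with windows 0.5 to 2 times as long, 37.6% with T3 and 10.2% with vehicle held one for RUNX1, 38.0% and 9.89% for RUNX2, 40.6% and 11.1% for RUNX3, and 40.4% and 10.7% for CBFB. All 5 regions were absent from the vehicle list, as were 93.0% of all TRβ T3 regions, so their being T3-only sets them no further apart than the list they belong to. The 5 regions spanned the list's ranking, at percentiles from 4.60 to 92.6.

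The strongest of them, chr21:34888582-34889737, covered the RUNX1 proximal start site printed above. Its TRβ signal value with T3 was 17.1 (12.3 and 4.82 in the libraries), which ranked 537 of 7208 at an irreproducible discovery rate of 0.000327, and no TRβ region was listed there with vehicle. Of all promoters, 11.1% overlapped a TRβ region with T3 and 1.88% with vehicle. Its rank places it within the top 1412, the length of the vehicle list, as it does none of the other 4. The same interval met regions of BRG1 and of ARID1A in both conditions, and of PBRM1 with T3 only. The second RUNX1 region, chr21:34807930-34808678, lay inside the gene 80.4 kb downstream of that start site. Its signal value was 10.96 (5.37 and 5.59), percentile 62.5, and it overlapped regions of all 6 remodeler lists. RUNX1 thus had 1 TRβ region at a promoter and 1 deep in the gene, both beside remodelers.

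At RUNX2 neither promoter overlapped a TRβ region. The TRβ region chr6:45445501-45446372 lay inside the gene, 23.7 kb downstream of the proximal start site, with a signal value of 10.2 (5.08 and 5.11) at percentile 50.9. It overlapped BRG1 in both conditions, ARID1A with T3 only and PBRM1 in neither. The other, chr6:45305517-45305929, lay 22.4 kb before the RUNX2 span and inside SUPT3H, a neighbouring gene for a transcription co-activator subunit that runs in the opposite direction. It was among the lowest of its list, at 8.17 (3.91 and 4.26) and percentile 4.60, with a discovery rate of 0.0363, and it overlapped no region of another list. Thus 1 of the 2 RUNX2 regions had remodelers beside it.

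The region in the CBFB window, chr16:67109755-67110362, was at the start of the next gene, PHAF1, 8.7 kb beyond the CBFB span. Its signal value was 10.1 (6.79 and 3.29), percentile 49.4, at a discovery rate of 0.0300. It overlapped BRG1 in both conditions and ARID1A and PBRM1 with T3 only. No TRβ region lay inside the CBFB gene itself. RUNX3 had its nearest TRβ T3 region 31.9 kb from the span, at chr1:24867060-24867603 with a signal value of 8.94 (4.69 and 4.25), just outside the 25 kb limit. The region at PHAF1 was the nearest TRβ region to CBFB, and 5 more lay 57.1 to 82.2 kb from its span.

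Of the 5 TRβ T3 regions, 4 overlapped a BRG1 T3 region (68.2% of all TRβ T3 regions did), 4 an ARID1A T3 region (66.3%) and 3 a PBRM1 T3 region (62.4%). Against the vehicle lists, the same 5 overlapped BRG1 at 4 (70.5%), ARID1A at 2 (65.0%) and PBRM1 at 1 (23.0%). Of the BRG1 regions, 4 of 48 met a TRβ region with T3 (8.49% of all BRG1 regions) and 0 of 54 with vehicle (1.31%). With so few TRβ regions, a change of 1 region moves each share of them by 20 percentage points. BRG1 was listed with vehicle at 4 of the 5, near the 70.5% of all TRβ T3 regions, so this does not set the RUNX regions apart.

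**Figure D2:**
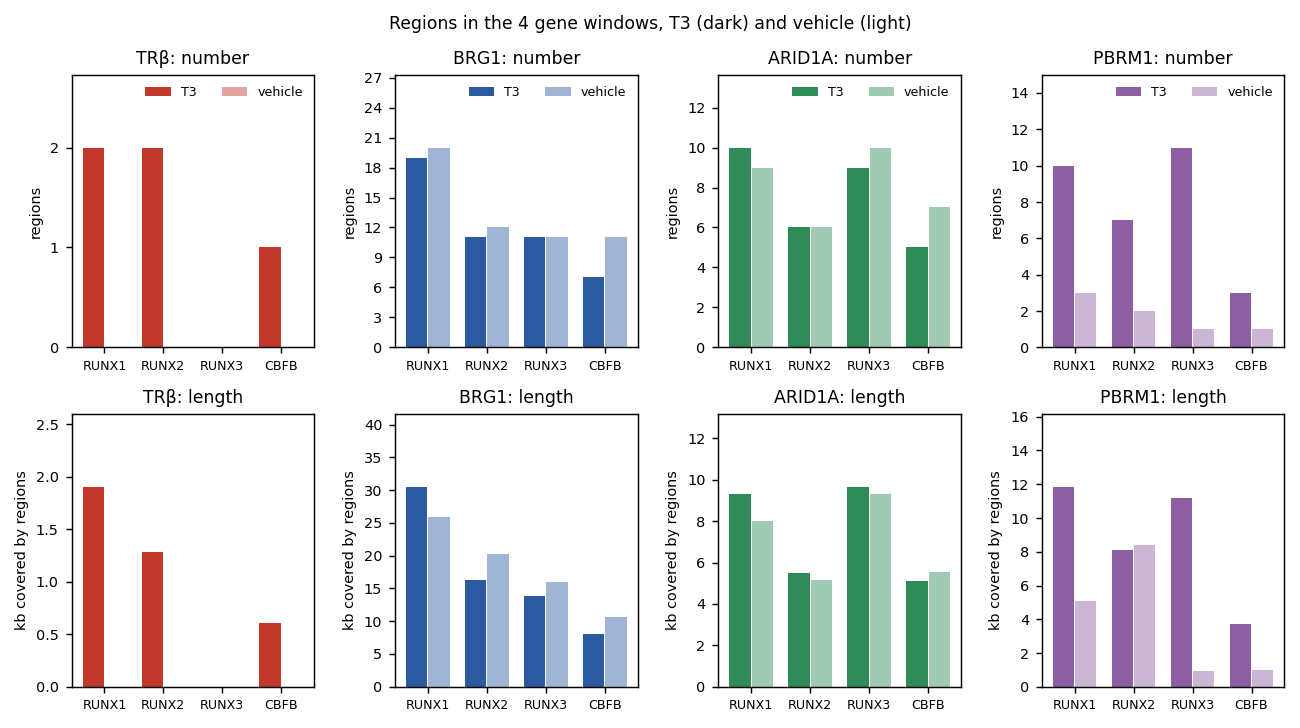
Number of regions (upper row) and kb covered by regions (lower row) in the 4 gene windows, for each antibody, T3 as dark and vehicle as light bars. PBRM1 counts are higher with T3 at all 4 genes, whereas the PBRM1 length at RUNX2 is 8.10 kb with T3 and 8.39 kb with vehicle.

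BRG1 had the most regions of the 4 proteins at each gene, level with PBRM1 at RUNX3 with T3, and its numbers in the 2 conditions were within 1 region of each other except at CBFB. With T3 and with vehicle, it had 19 and 20 regions at RUNX1, 11 and 12 at RUNX2, 11 and 11 at RUNX3, and 7 and 11 at CBFB. All 4 genes had BRG1 regions, as did 79.8% of protein-coding windows with T3 and 82.8% with vehicle. The ratio of T3 to vehicle regions was 0.889 in the RUNX windows and 0.870 over all regions. RUNX1 had 19 BRG1 T3 regions where genes with windows of like length had a median of 4 and an upper quartile of 8. RUNX2 had 11 against 4 and 8, RUNX3 11 against 3 and 6, and CBFB 7 against 3 and 6. Of the like-length genes, 92.5% had fewer than RUNX1, 82.5% fewer than RUNX2, 92.4% fewer than RUNX3 and 78.6% fewer than CBFB. RUNX3 was the most densely covered, at 9.51 BRG1 regions per 100 kb in each condition, against 2.82 with T3 and 3.23 with vehicle over all protein-coding windows together.

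In the RUNX windows 10 of 48 BRG1 T3 regions were T3-only (23.3% of all BRG1 T3 regions were), and 16 of 54 vehicle regions were vehicle-only (29.3%). At RUNX2 none of the 11 BRG1 T3 regions was T3-only, whereas 6 of its 12 vehicle regions were vehicle-only. Those 6 had vehicle signal values between 8.08 and 12.4 and lay beside larger regions listed in both conditions. T3-only BRG1 regions at the 4 genes were low in their list, with a median percentile of 16.7, against 64.6 for the shared ones. Over all BRG1 T3 regions the medians were 22.7 and 60.3, so regions in 1 condition only ranked low at the RUNX genes as elsewhere.

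ARID1A had 10 regions with T3 and 9 with vehicle at RUNX1, 6 and 6 at RUNX2, 9 and 10 at RUNX3, and 5 and 7 at CBFB. Its windows with a region were 4 of 4 in both conditions, against 76.0% of protein-coding windows with T3 and 79.5% with vehicle. Of 30 ARID1A T3 regions, 15 were T3-only (46.5% of all were), and 12 of 32 vehicle regions were vehicle-only (51.6%). ARID1A was thus listed about as often in each condition with a lower share of regions in both lists than BRG1. Of the BRG1 T3 regions, 25 of 48 overlapped ARID1A with T3 (43.5% of all BRG1 T3 regions), and 17 of the 54 BRG1 vehicle regions overlapped ARID1A with vehicle (38.1%).

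Of the remodeler subunits, PBRM1 differed most in number between conditions. It had 10 regions with T3 and 3 with vehicle at RUNX1, 7 and 2 at RUNX2, 11 and 1 at RUNX3, and 3 and 1 at CBFB. All 4 genes had PBRM1 regions in both lists, as did 78.1% of protein-coding windows with T3 and 44.0% with vehicle. The ratio of 4.43 over the 4 genes was near the 4.18 of all PBRM1 regions, and the ratio of covered lengths was 2.27 in the RUNX windows and 2.85 over all regions. Of 31 T3 regions, 21 were T3-only (79.2% of all were), and of 7 vehicle regions 1 was vehicle-only (24.9%). With both PBRM1 lists held to the same length by signal value, 8 T3 and 7 vehicle regions were in the 4 windows, and at a discovery rate of at most 0.01 there were 18 and 2, so the size of the excess with T3 depends on how the lists are drawn. The T3-only PBRM1 regions were not all weak, with a median percentile of 53.2 against 74.4 for the shared ones, and 44.2 against 72.6 over all PBRM1 T3 regions. Of the BRG1 T3 regions, 20 of 48 overlapped PBRM1 with T3 (39.2%), and 7 of the 54 BRG1 vehicle regions overlapped PBRM1 with vehicle (12.9%).

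The genes differed in how the PBRM1 regions fell. At RUNX3 10 of 11 and at RUNX1 8 of 10 PBRM1 T3 regions were T3-only, against 1 of 7 at RUNX2 and 2 of 3 at CBFB. Over all PBRM1 T3 regions the share was 79.2%. Most of the 7 RUNX2 regions lay over 1 wide vehicle region at the proximal promoter, so they counted as shared together. At RUNX1 the PBRM1 regions covered 11.8 kb with T3 and 5.09 kb with vehicle, and at RUNX3 11.2 kb with T3 and 0.929 kb with vehicle. At RUNX2 they covered 8.10 kb with T3 and 8.39 kb with vehicle, so the higher count with T3 there was of more and shorter regions. Differences between the genes were not tested.

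**Figure D3:**
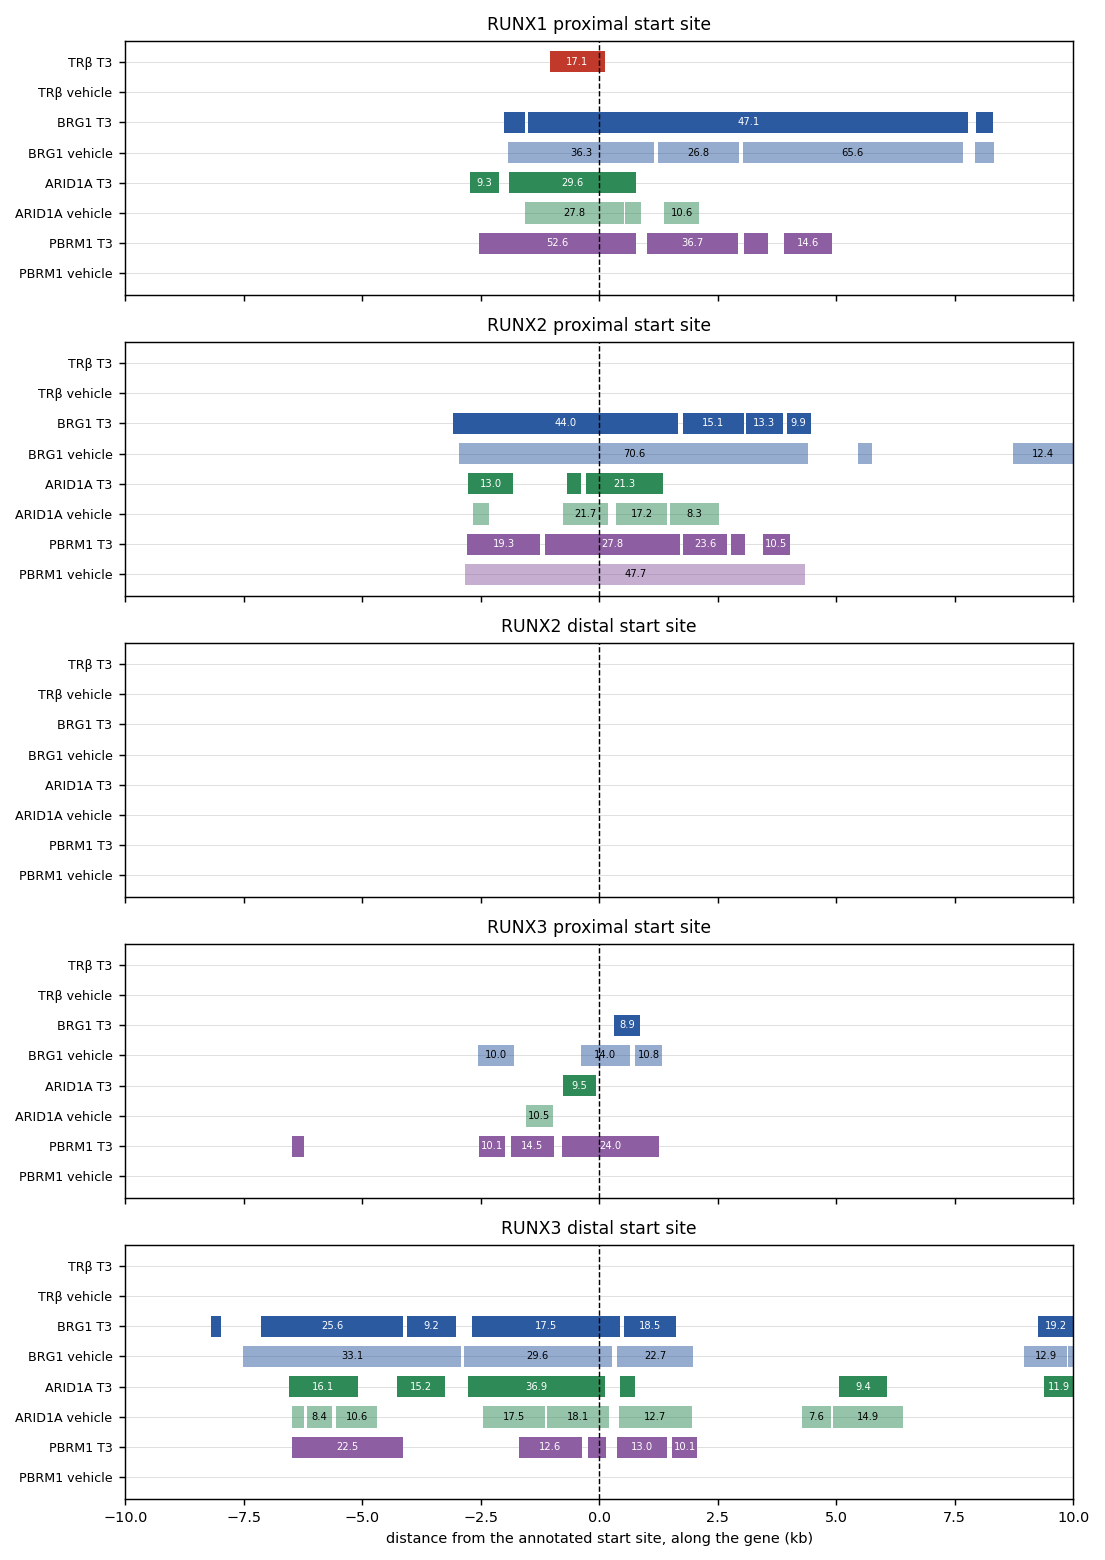
Regions within 10 kb of 5 annotated start sites, with distance along the gene in kb on the x axis and 1 row per list, T3 above vehicle. Numbers on bars are the deposited signal values, which compare regions within a row. The PBRM1 rows at the RUNX1 proximal start hold 4 regions with T3 and 0 with vehicle, those at the RUNX2 proximal start hold 5 with T3 and 1 with vehicle, and the RUNX2 distal start is empty in all 8 rows.

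The RUNX1 proximal promoter lay in a cluster of regions of 6 lists, chr21:34880916-34891432, 10.52 kb wide. PBRM1 with T3 had 4 regions in it, with signal values of 52.6 (33.8 and 18.8), 36.7 (19.3 and 17.4), 14.6 (5.76 and 8.88) and 10.2 (5.39 and 4.80), and PBRM1 with vehicle had 0. The highest of these covered the start site and ranked 37 of 38140 in the PBRM1 T3 list, and the next ranked 292, both within the top 9115, the length of the vehicle list. The nearest PBRM1 vehicle region was 52.0 kb away. BRG1 was listed across the same ground in both conditions, with T3 values of 47.1 and 9.93, and vehicle values of 65.6, 26.8 and 36.3. ARID1A had T3 values of 29.6 and 9.26, and vehicle values of 27.8, 10.6 and 9.98. At this promoter TRβ and PBRM1 were in the T3 lists alone, and BRG1 and ARID1A were in both. Of all promoters, 41.9% overlapped a PBRM1 T3 region and 14.8% a PBRM1 vehicle region. For BRG1 the shares were 42.8% with T3 and 46.4% with vehicle, and for ARID1A 36.5% and 33.2%.

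Of the 7 clusters of overlapping regions in the RUNX1 window that held PBRM1, 3 held it in both conditions and 4 with T3 alone. Among the 4 was chr21:34865200-34866563, inside the gene, with PBRM1 at 19.1 (7.56 and 11.5) with T3 beside BRG1 and ARID1A in both conditions. At chr21:34807076-34810073, the cluster that holds the TRβ region inside the gene, PBRM1 was at 15.9 (8.45 and 7.42) with T3 and 16.1 (8.19 and 7.89) with vehicle. There BRG1 had 40.9 with T3 and 38.2 and 7.69 with vehicle, and ARID1A had 19.1 with T3 and 18.5 with vehicle. That cluster was the only one of all 63 in the RUNX windows with regions of 7 lists, the missing list being TRβ with vehicle. At the upper end of the RUNX1 span, from which the longest transcripts start, chr21:35046795-35050398 held BRG1 (23.1 with T3, 25.05 and 8.30 with vehicle), PBRM1 (16.4 with T3, 22.9 with vehicle) and ARID1A with T3 alone (10.6). The cluster at the start of RUNX1-AS1, a non-coding RNA gene inside RUNX1, held all 6 remodeler lists. Its PBRM1 regions, 10.4 with T3 and 14.7 with vehicle, did not overlap each other. A cluster far inside the gene, chr21:34982940-34984986, held BRG1 at 24.3 with T3 and 10.47 with vehicle, ARID1A with T3 alone (8.82) and no PBRM1. PBRM1 was thus listed with T3 alone at the proximal promoter and in both conditions at other clusters, such as the one with the TRβ region inside the gene.

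The RUNX2 proximal promoter lay in the widest run of PBRM1 with vehicle among the 4 genes. A single vehicle region, chr6:45419451-45426626, had a signal value of 47.7 (16.8 and 30.9) and ranked 53 of 9115. With T3 PBRM1 had 5 regions over the same 7.18 kb, at 27.8, 23.6, 19.3, 11.2 and 10.50. BRG1 did the same, with T3 values of 44.0, 15.1, 13.3 and 9.91, and with vehicle a single region of 7.37 kb at 70.6 (44.9 and 25.7) that ranked 93 of 64299. ARID1A had 3 regions with T3, at 21.3, 12.98 and 12.8, and 4 with vehicle, at 21.7, 17.2, 9.84 and 8.31. In contrast to the RUNX1 proximal promoter, all 6 remodeler lists covered this one and TRβ was in neither list. LOC124901324, a non-coding RNA gene read in the opposite direction, starts at the same place, so the regions cannot be assigned to RUNX2 alone.

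The RUNX2 distal promoter, which holds the AGGTCA match, overlapped 0 of the 8 lists. Its nearest region was the weak TRβ T3 region, 22.2 kb away, and the nearest remodeler region was 48.1 kb away. Between the promoters, the start of SUPT3H at chr6:45376957-45378702 was covered by all 6 remodeler lists. Its values were 19.7 with T3 and 27.9 with vehicle for BRG1, 15.9 and 11.3 for ARID1A, and 16.3 and 14.1 for PBRM1. Downstream of the proximal promoter, BRG1 was listed at chr6:45435349-45440298, with T3 regions at 24.0, 23.1 and 8.32 and a vehicle region at 55.5 that ranked 324. ARID1A (12.6) and PBRM1 (10.9) were listed there with T3 alone. All RUNX2 regions inside the span lay below chr6:45447488, and none was listed in the rest of its 223 kb.

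RUNX3 had no TRβ region, and its remodeler regions gathered at the distal promoter. At chr1:24962952-24967862, ARID1A had T3 values of 36.9 (21.8 and 15.1) and 9.77, and vehicle values of 18.1, 17.5 and 12.7. The ARID1A value of 36.9 was the highest of that protein at the 4 genes and ranked 225 of 41710. BRG1 had T3 values of 18.5 and 17.5, and vehicle values of 29.6 and 22.7. PBRM1 with T3 had 4 regions between 9.34 and 12.95, and PBRM1 with vehicle had 0. The distal promoter of RUNX3 was thus listed for BRG1 and ARID1A in both conditions and for PBRM1 with T3 alone. The next cluster before the gene, chr1:24967917-24972522, had the same make-up, with PBRM1 at 22.5 (5.99 and 16.5) with T3. There BRG1 was at 25.6 and 9.20 with T3 and 33.1 with vehicle, and ARID1A at 16.1 and 15.2 with T3 and 10.64, 8.61 and 8.44 with vehicle.

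The RUNX3 proximal promoter overlapped 3 lists. PBRM1 with T3 was at 24.0 (12.3 and 11.7), percentile 93.4, over chr1:24929016-24931063. ARID1A with T3 was at 9.54 and BRG1 with vehicle at 13.99. The BRG1 T3 region chr1:24929414-24929964, at 8.86, overlapped that BRG1 vehicle region but lay 263 bases from the promoter. RUNX3-AS1, an antisense RNA gene, starts beside it. The only PBRM1 vehicle region of the RUNX3 window was chr1:24949170-24950098, inside the gene, at 14.5 (6.05 and 8.44). There PBRM1 with T3 was at 9.22 (5.40 and 3.82), so this position was not lost from the T3 list.

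CBFB, the shared partner subunit, had its main cluster at the 5′ end of the gene, chr16:67028382-67031152. PBRM1 was listed with T3 alone, at 15.3 (8.78 and 6.51). BRG1 was at 29.5 with T3 and at 17.1 and 11.5 with vehicle. ARID1A was at 16.2 with T3 and at 11.6 and 12.3 with vehicle. The cluster inside the gene, chr16:67055347-67057376, held BRG1 and ARID1A of both conditions and neither PBRM1 list. The only PBRM1 vehicle region of the window, at 13.96, lay before the gene at chr16:67013000-67013974, and overlapped a PBRM1 T3 region at 11.3. Across RUNX1, RUNX3 and CBFB, PBRM1 was listed with T3 and not with vehicle at a 5′ end or promoter. At the upper end of RUNX1 and the proximal promoter of RUNX2 it was listed in both. Of all PBRM1 T3 regions, 79.2% were T3-only. Those over the RUNX1 proximal, RUNX3 proximal and RUNX3 distal promoters and the CBFB 5′ end were at percentiles 99.9, 93.4, 12.7 and 70.6. The RUNX3 distal and CBFB regions ranked 33296 and 11201, outside the top 9115, the length of the vehicle list.

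**Figure D4:**
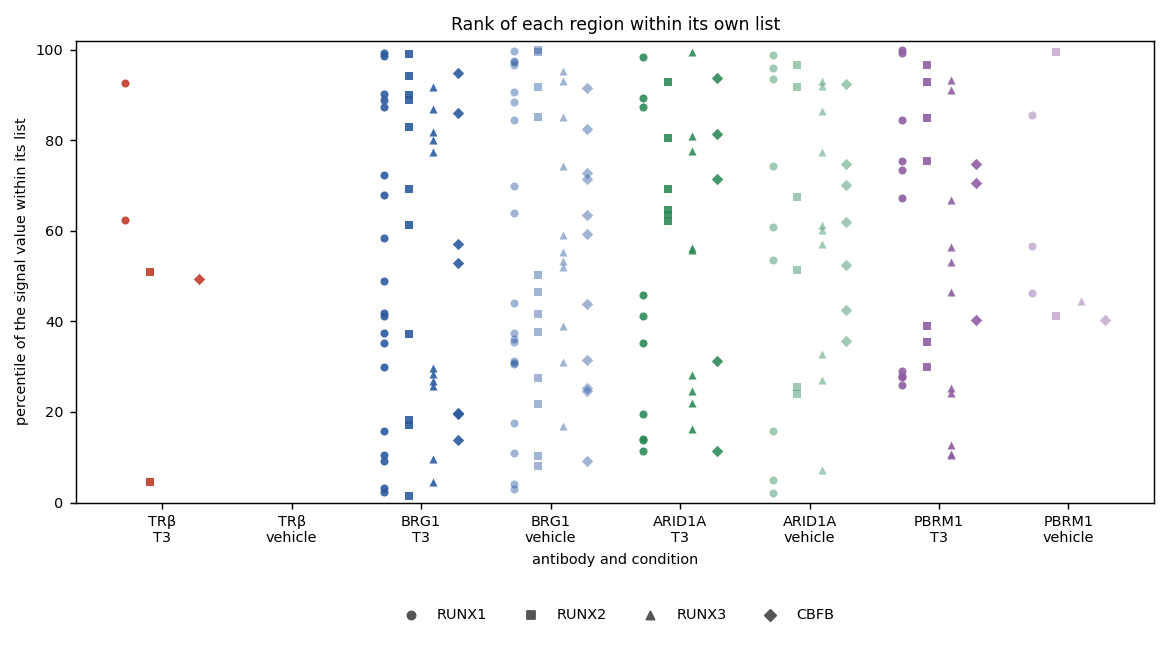
Percentile of the signal value of each region within its own list (y axis), by antibody and condition (x axis), with the symbol giving the gene. Percentiles from 4.60 to 92.6 are seen for the 5 TRβ T3 regions, and the highest PBRM1 region is at 99.9 with T3 (RUNX1) and at 99.4 with vehicle (RUNX2).

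Merging the overlapping intervals of all 8 lists gave 63 clusters, of which 47 touched the gene spans and 16 lay outside them. RUNX1 had 25, RUNX2 14, RUNX3 13 and CBFB 11. Of these, 30 came from 1 list, with a median width of 0.522 kb, and 20 of the 30 were BRG1 alone, 9 with T3 and 11 with vehicle. All 6 remodeler lists met at 4 clusters, 2 at RUNX1 and 2 at RUNX2. PBRM1 was listed in both conditions at 7 clusters, with T3 alone at 12 and with vehicle alone at 0. The same counts were 28, 9 and 15 for BRG1, and 13, 11 and 9 for ARID1A. Clusters were made in the RUNX windows only, so no cluster count here has a share over all genes beside it. By region, 79.2% of all PBRM1 T3 regions were T3-only and 24.9% of all PBRM1 vehicle regions were vehicle-only. The vehicle-only PBRM1 region chr21:34835571-34836691 shared a cluster with a PBRM1 T3 region that it did not overlap.

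Of 20 genes for partners of RUNX proteins (co-repressors, kinases, SMAD and Hippo-pathway factors), 13 had a TRβ region within 25 kb with T3 and 4 with vehicle, against the 39.3% and 11.1% of all genes given above. The windows of TLE2 and TLE5 held the same TRβ T3 region, chr19:3036543-3037752 at 9.80, so the 13 are not all separate. All 20 had BRG1, ARID1A and PBRM1 regions with T3, against 79.8%, 76.0% and 78.1% of all genes, whose windows were not matched for length. A region was counted anywhere in the span extended by 25 kb, so it may lie outside the named gene. The highest TRβ T3 value was in the window of SIN3A, a co-repressor scaffold, at 33.0 (12.6 and 20.4), in a region also listed with vehicle. Next came CBFA2T2, a co-repressor of the ETO family, at 19.5 (7.78 and 11.7), also listed with vehicle. HES1, a Notch-pathway repressor, followed at 19.4 (9.60 and 9.79), in a region listed with T3 only. The HES1 window as a whole held 2 TRβ regions with T3 and 1 with vehicle. MEN1, which encodes menin, was at 14.9 (6.56 and 8.37), with T3 only. SMAD3, a TGF-β effector that binds RUNX proteins, had 0 TRβ regions with T3 and 1 with vehicle, although BRG1 had 36 regions there with T3 and 46 with vehicle.

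Of 20 genes known as RUNX targets in bone, blood or other cells, 10 had a TRβ region with T3 and 4 with vehicle (39.3% and 11.1% of all genes). All 20 had a BRG1 region with T3 and 19 with vehicle (79.8% and 82.8%), and 15 had PBRM1 with T3 and 11 with vehicle (78.1% and 44.0%). The highest TRβ T3 values were in the windows of CD4, a T-cell co-receptor, at 20.02 (13.8 and 6.26), and COL1A1, a bone collagen, at 18.7 (11.5 and 7.19). The COL1A1 region was also listed with vehicle. The CD4 region was not, although the CD4 window held 1 TRβ vehicle region elsewhere. Here too a region may lie outside the gene whose window holds it. MMP9, a matrix protease, followed at 15.6 (8.01 and 7.57), and BCL2L11, which encodes the cell death protein BIM, at 13.5 (5.25 and 8.28). Among other bone genes of the list, SP7, an osteoblast transcription factor, had 1 TRβ region with T3 at 9.43 (4.04 and 5.39), and SPP1, IBSP, BGLAP, COL10A1 and MMP13 had 0 in both lists. Window lengths differ between these lists and all genes, with medians of 146 kb for the partners and 66.2 kb for the targets.

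By the numbers of regions in the 8 lists, scaled to window and list length, the genes most like RUNX1 were R3HDM2 (distance 0.67 on the log2 scale) and LYST (0.75), among 2904 genes with windows of like length, whose median distance was 4.72. For RUNX2 they were PIK3AP1 (0.78) and ACAP2 (0.84), with a median of 3.88 among 3557 genes. For RUNX3 they were BLK (0.69) and UBE2L3 (0.74), with a median of 4.55 among 13780. For CBFB, ACSBG2 was at 0.71, with a median of 3.56 among 12487. None of these named genes belongs to the RUNX family.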

How the data were processed

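CUT&RUN was run on nuclei of 500000 Nthy-ORI cells per reaction, per the labels' protocols, in 17 libraries: 2 for each of 8 groups and 1 with IgG, which was not used here. Tools named in the submitters' processing notes are CASAVA 1.7 and, without versions, MACS2, Bowtie2 and Trim Galore, and the build is hg38. Their settings and whether IgG served as control are not stated there, and the depth behind each region is unknown. The authors deposited 1 IDR peak list per group, made from both libraries together. The deposited signal is the sum of the values in the 2 libraries, the deposited score is a scaled irreproducible discovery rate, and the deposited −log10 of that rate showed rates up to 0.05 in the files. Which library column is which numbered replicate is not stated.

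Only the main chromosomes (1 to 22, X, Y) entered. Regions with 1 bp or more in common with the other condition's list were called shared, the rest T3-only or vehicle-only. Gene spans and promoters came from RefSeq tables of GRCh38.p14, the files' build, without exons, so exonic and intronic regions were not separated. Members and gene lists were chosen with earlier results of these data known. Named were the 4 members, genes overlapping their windows or nearest to their TRβ regions, up to 4 genes per list by TRβ T3 signal, and the 2 genes nearest to each member over 8 values of log2((regions + 0.5)/(window length × list length)), among windows of 0.5 to 2 times its length. A gene that this rule names is not reported here. NKX2-1, PAX8, SMAD3, SP7 and the bone genes without TRβ were named after their values were seen. Overlap calls were tested on 7208 simulated regions, with 0 wrong. Alternatives were a rate of at most 0.01, lists of equal length, the span alone, a 100 kb extension, either library's intervals, reciprocal 50% overlap and gaps up to 500 bp. Python 3.11.15, numpy 2.4.6, pandas 2.3.3 and matplotlib 3.10.9 were used.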

Additional observations from a re-analysis of the deposited data

How the results depend on the processing

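Of 142 values recomputed for 20 counts, 98 stayed within 1.5 times and 44 did not. With the intervals of either library all values stayed within 1.5 times, such as 67 clusters in place of 63 with the first library. That alternative exchanged the coordinates of the same listed regions, so it cannot show whether a result depends on 1 library. No paired analysis was possible because each group has 1 list, and leaving out a replicate could not be run for the same reason. At a discovery rate of at most 0.01, TRβ had 3 T3 regions, 3 of them T3-only, BRG1 had 4 T3-only regions, ARID1A had 19 with vehicle and 7 vehicle-only, and PBRM1 had 18 with T3, 2 with vehicle and 0 vehicle-only. With lists of equal length, TRβ had 1 T3 region, the T3-only one at the RUNX1 proximal promoter, which overlapped BRG1, ARID1A and PBRM1 with T3 (1 each). PBRM1 then had 8 T3 regions, 5 of them T3-only, and 6 vehicle-only regions, and its ratio of T3 to vehicle regions was 1.14 in place of 4.43, whereas at a rate of at most 0.01 it was 9.0 and with a 100 kb extension 3.18, so its size depends on list length and threshold. Within the gene span alone, TRβ had 3 T3 regions, 3 T3-only, and BRG1 had 5 T3-only. With a 100 kb extension, TRβ had 12 T3 regions, 12 T3-only, of which 8 overlapped BRG1, 7 ARID1A and 6 PBRM1 with T3, and there were 142 clusters. BRG1 then had 94 regions with T3 (22 T3-only) and 107 with vehicle (34 vehicle-only), ARID1A 61 (30) and 74 (35), and PBRM1 54 (38) and 17 (5). With reciprocal 50% overlap, one-condition regions were 24 with T3 and 30 with vehicle for BRG1, 22 with vehicle for ARID1A and 4 with vehicle for PBRM1, and TRβ overlapped BRG1 at 0 and PBRM1 at 1. With gaps up to 500 bp, PBRM1 had 0 vehicle-only regions. The TRβ vehicle count was 0 under every alternative run for it. Larger windows hold more regions by construction, and stricter or shorter lists fewer. With unknown depth, an unlisted position is not shown to be unbound.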

Other observations

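Clusters without BRG1 in either list made up 11 of the 63, and 5 of them were at RUNX3. Clusters of 1 list included 6 of ARID1A with vehicle, 1 of ARID1A with T3 and 2 of PBRM1 with T3. The 2 PBRM1 clusters were chr21:34791927-34792617, near the 3′ end of RUNX1, at 10.34 (6.57 and 3.77), and chr1:24936513-24936759, inside RUNX3, at 9.22 (5.83 and 3.39), both low in their list.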
